A study of Mus musculus with 6 samples.

Results

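The genes described here are 41 genes of programmed cell death: Bcl2 family members, mitochondrial death factors, caspases and their inhibitors, death receptors, the p53 family and its targets, and neurotrophin receptors. They were listed by gene function, with earlier results of these data known, because the study asks what becomes of horizontal cells in retinas that lack Onecut1. Each gene was read on the probe set with the highest mean signal among those that the array annotation assigns to that gene alone. Such a probe set was found for 39 of the 41 genes, with 115 probe sets between them, out of 18193 genes named on the array. Bax and Trp53 have none under their symbols in the annotation used and were not analysed here. Of the 39, 31 had a mean log2 signal over 7 in at least 1 genotype, the level the study's methods required for a gene to be compared, and 8 lay below it: Bik, Pmaip1, Casp1, Casp12, Birc3, Fas, Trp73 and Ntrk3.

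The data are 6 Affymetrix Mouse Genome 430 2.0 arrays, each of the whole retina of 1 embryo, with 3 wild-type (WT) and 3 Onecut1-knockout (OC1-KO) embryos numbered 1 to 3 within a genotype. The study compared OC1-KO retinas with those of WT littermates. The strain background was mixed: the Onecut1-deficient line came from R1 embryonic stem cells injected into a Swiss strain and was then crossed to C57Bl/6. The sample labels give the age as E14 and the series title as E14.5, and the labels name no drug or other agent for either genotype. The deficiency is not restricted to the retina, and the labels do not say which embryos shared a litter. A retina holds many cell types, so fewer cells of a type and less RNA per cell cannot be told apart in any value below.

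Cells of the developing retina can die through an intrinsic or an extrinsic route. In the intrinsic route, BH3-only proteins relieve the hold of Bcl2-like proteins on pore-forming relatives, cytochrome c leaves the mitochondria, Apaf1 assembles it into the apoptosome, and caspase 9 starts the caspase cascade. In the extrinsic route, receptors such as Fas recruit Fadd and caspase 8. The p53 pathway switches on several BH3-only genes, and neurotrophins act as survival signals for retinal neurons through Trk receptors, while the p75 receptor Ngfr can transmit a death signal. Many of these proteins are regulated by cleavage, binding or release, which transcript levels do not report.

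Values are the log2 of the MAS5 signal, an array intensity, and a difference is OC1-KO minus WT on that scale. On each array 43.4% to 46.7% of probe sets exceeded a log2 signal of 7. Retinal progenitor and ganglion cell genes had high summed signals on every array, and the summed signal of the horizontal cell list ranged from 7295 to 7967 in WT and from 6914 to 7414 in OC1-KO. Onecut2, Ptf1a and Foxn4 made up most of that sum, while Lhx1 and Calb1 lay under a log2 signal of 7 on every array. The sum therefore does not measure the number of horizontal cells. Onecut1 itself ranged from 8.76 to 9.25 in WT and from 8.31 to 9.67 in OC1-KO, on a probe set whose place relative to the deleted sequence was not found in the sources, so it checks nothing about the labels. Both embryos numbered 3 stood apart: the summed signal of 12 lens genes was 22312 in WT 3 and 11746 in OC1-KO 3 against 307 to 505 in the other embryos. That of 6 red blood cell genes was 16562 and 23983 against 69 to 741, and that of 9 periocular mesenchyme genes was 3094 and 2546 against 451 to 693. The summed signal of 10 pigment epithelium genes was apart between the genotypes, at 5881 to 6430 in WT and 6746 to 7255 in OC1-KO. Most of each sum came from Otx2, at 12.39 to 12.41 in WT and 12.11 to 12.64 in OC1-KO. The study also used Otx2 to show photoreceptor precursors, so the sums do not measure pigment epithelium alone. Taken singly, each of the 10 genes overlapped between the genotypes. The median difference over the 10 was 0.67, with 5 of them above the filter. The part of these genes in the results below was not tested.

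In OC1-KO, the apoptosis genes as a group were close to their WT levels. Of the 31 genes above the filter, 13 were higher and 18 lower, the median difference was -0.04, and 24 lay within 0.2 of no difference. Among the 18 are 2 genes that passed the filter through their WT mean alone, Hrk and Bak1. The median over all 20888 probe sets kept was -0.01, with 47.7% higher in OC1-KO. The median size of the difference, regardless of sign, was 0.11 over the apoptosis genes and 0.10 over all probe sets.

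By limma with Benjamini-Hochberg adjustment over all probe sets kept, 0 of the 31 genes passed an adjusted p of 0.05, as did 0% of all probe sets. At an unadjusted p under 0.05, limma called 1 of the 31, Ntrk2, which was higher in OC1-KO. Over all probe sets it called 0.369% higher and 0.637% lower. The methods' t-test, run on the same values, called Ntrk2 and Casp6, both higher, against 1.51% of all probe sets in either direction. With the embryo number as a block, limma called Ntrk2 higher and Ngfr lower, against 4.37% of all probe sets. Neither the methods' t-test nor the block gave any adjusted p under 0.05. In 2 of the 31 genes the 3 OC1-KO values did not overlap the 3 WT values, Ntrk2 and Casp6, both higher, where the share over all probe sets was 1.7% higher and 1.86% lower. OC1-KO was higher in all 3 same-numbered pairs for 4 of the 31 genes and lower in all 3 for 5, where 10.3% and 13.1% of all probe sets were. With 3 embryos per genotype, an exact permutation test of a single gene cannot go below a two-sided p of 0.1.

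**Figure D1:**
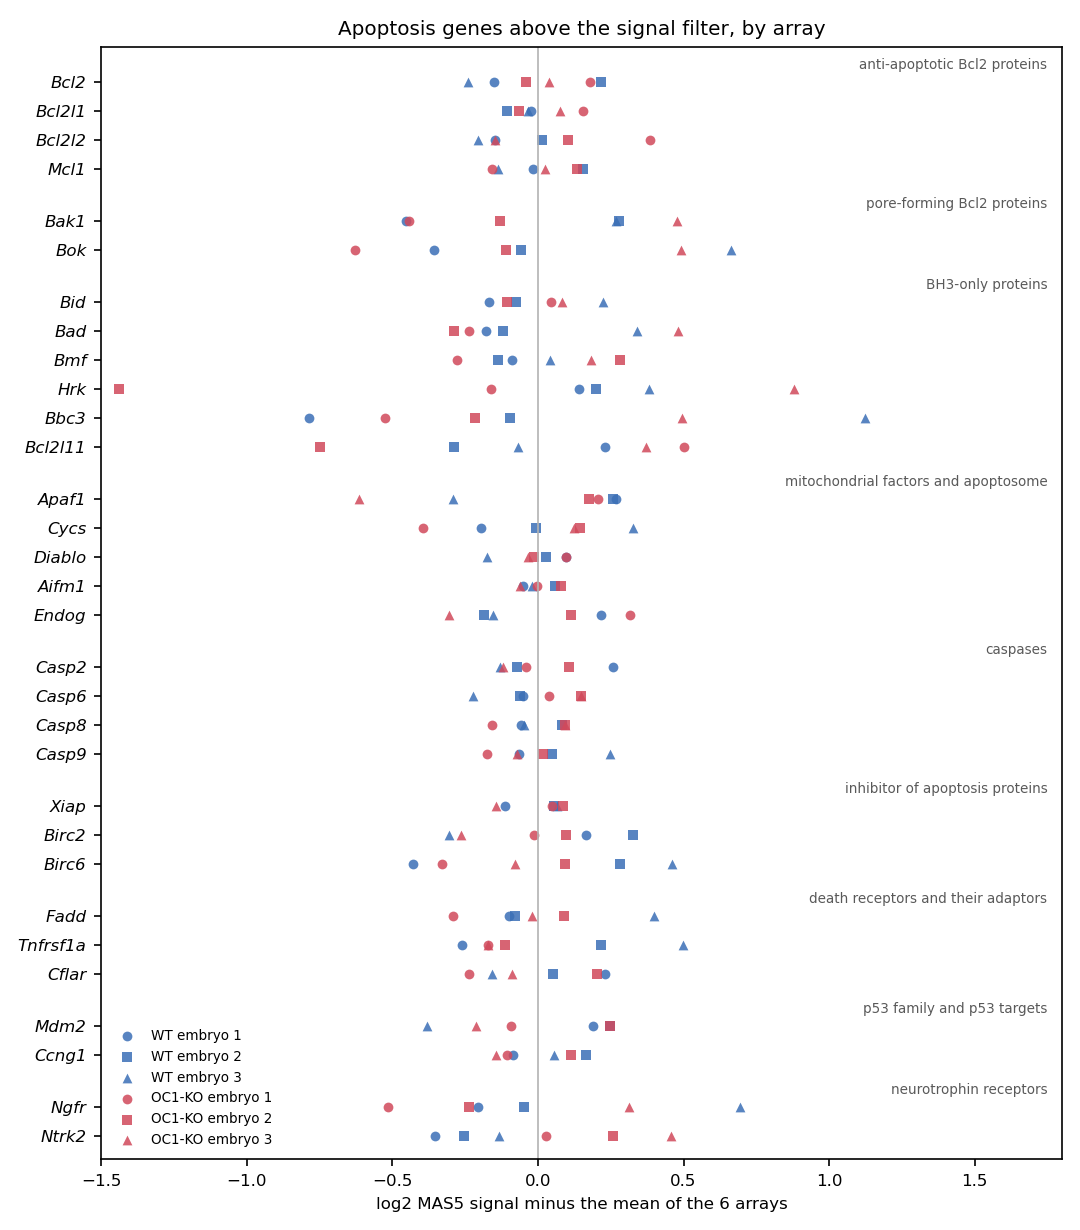
Log2 MAS5 signal of the 31 apoptosis genes above the signal filter, each as its distance from the mean of the 6 arrays (horizontal axis); colour gives the genotype and marker shape the embryo number, 1 point per array. The OC1-KO points lie to the right of all WT points in the rows of Casp6 and Ntrk2, and overlap the WT points in the other rows.

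The neurotrophin receptors held the largest difference toward OC1-KO among the 31 genes. Ntrk2 encodes TrkB, the receptor of brain-derived neurotrophic factor. Its brightest probe set gave log2 signals of 8.96, 9.06 and 9.18 in WT and 9.34, 9.57 and 9.77 in OC1-KO. The lowest OC1-KO value was above the highest WT value, and OC1-KO was higher in all 3 same-numbered pairs, by 0.38, 0.51 and 0.58. The difference was 0.49 (SE 0.17), a 1.41-fold higher signal, with an unadjusted limma p of 0.0215, 0.00622 with the embryo number as a block, and an adjusted limma p of 1. Leaving out 1 array at a time kept the difference between 0.39 and 0.60, but the unadjusted p was over 0.05 without WT 1 (0.0649), WT 2 (0.0592), OC1-KO 2 (0.0551) or OC1-KO 3 (0.0659). Without both embryos numbered 3 the difference was 0.45, with an unadjusted limma p of 0.0552.

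The other Ntrk2 probe sets did not all share that direction. The array carries 8 probe sets for the gene, 5 of them above the filter. The next brightest gave 8.74, 8.82 and 9.07 in WT and 8.29, 8.62 and 8.55 in OC1-KO. Here the groups were apart the other way, with OC1-KO lower by 0.39 (SE 0.17), an unadjusted limma p of 0.0535 and 0.0219 with the embryo number as a block. The remaining 3 above the filter overlapped between genotypes and differed by 0.03, -0.22 and 0.28, with SEs of 0.28, 0.24 and 0.35. The Ntrk2 gene makes a full-length receptor and truncated forms without the kinase domain, and which transcripts each probe set detects was not found in the sources. The sum of Ntrk2 transcripts was therefore not shown to differ.

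**Figure D2:**
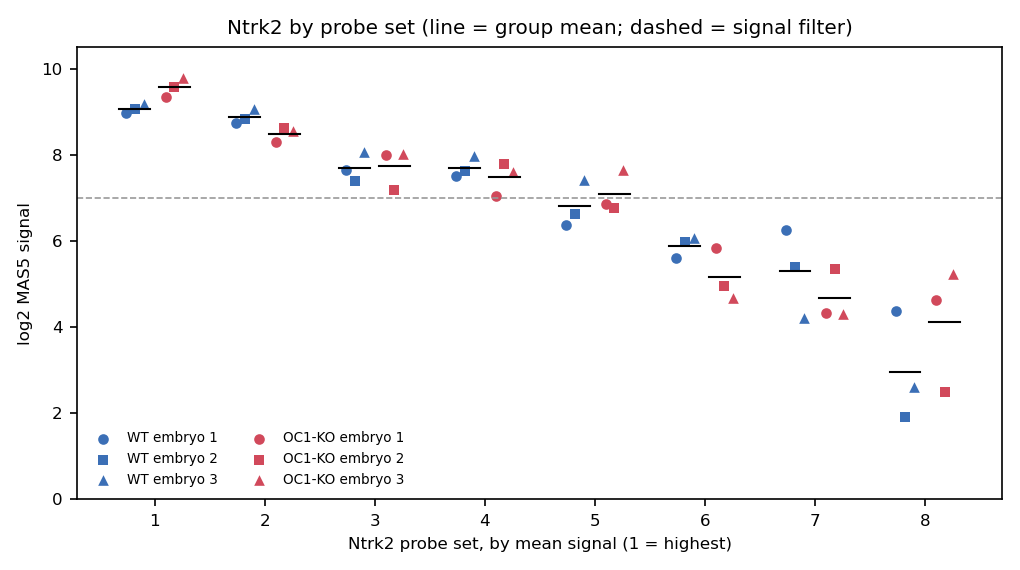
Log2 MAS5 signal of the 8 Ntrk2 probe sets on each array, ordered by mean signal, with WT in blue, OC1-KO in red, a line at each group mean (n = 3) and a dashed line at the signal filter of 7. The OC1-KO values lie above the WT values on probe set 1 and below them on probe set 2, and overlap them on the other 6.

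Ngfr, the p75 neurotrophin receptor, gave 9.18, 9.34 and 10.08 in WT and 8.87, 9.15 and 9.70 in OC1-KO. The groups overlapped, yet OC1-KO was lower in each of the 3 same-numbered pairs, by -0.31, -0.19 and -0.38. The mean difference was -0.29 (SE 0.31), with an unadjusted limma p of 0.369, which was 0.0428 with the embryo number as a block. It shrank to -0.02 without WT 3 and was -0.25 without both embryos numbered 3. Ntrk3, which encodes the neurotrophin-3 receptor TrkC, lay below the filter at 6.52 ± 0.28 in the WT and 6.68 ± 0.20 in the OC1-KO embryos (SD, n = 3 per genotype).

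The caspases held the other gene with separate groups. Casp6, an effector caspase that also cleaves axonal and nuclear proteins, gave 9.73, 9.72 and 9.56 in WT and 9.82, 9.93 and 9.93 in OC1-KO. All 3 OC1-KO values exceeded all 3 WT values, and the spread was small in both genotypes. The difference of 0.22 (SE 0.14) corresponds to a 1.17-fold higher signal, and it stayed between 0.17 and 0.26 with any 1 array left out and was 0.15 without both embryos numbered 3. The methods' t-test passed its threshold, while limma gave an unadjusted p of 0.153 and 0.111 with the embryo number as a block. The SDs of the 3 values behind this were 0.10 in WT and 0.06 in OC1-KO. The second Casp6 probe set lay below the filter and overlapped between genotypes.

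Casp9, the initiator that the apoptosome activates, gave 8.71, 8.82 and 9.02 in WT and 8.60, 8.79 and 8.70 in OC1-KO. The ranges overlapped although OC1-KO was lower in 3 of 3 pairs, with a difference of -0.15 (SE 0.15). Casp2, an initiator linked to DNA damage, and Casp8, the initiator of the death receptor route, differed by -0.04 (SE 0.17) and 0.02 (SE 0.15). The inflammatory caspases Casp1 and Casp12 were below the filter. Casp1 gave 2.73, 1.55 and 4.46 in WT and 5.03, 5.03 and 4.14 in OC1-KO, overlapping values in a range far under the filter.

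**Figure D3:**
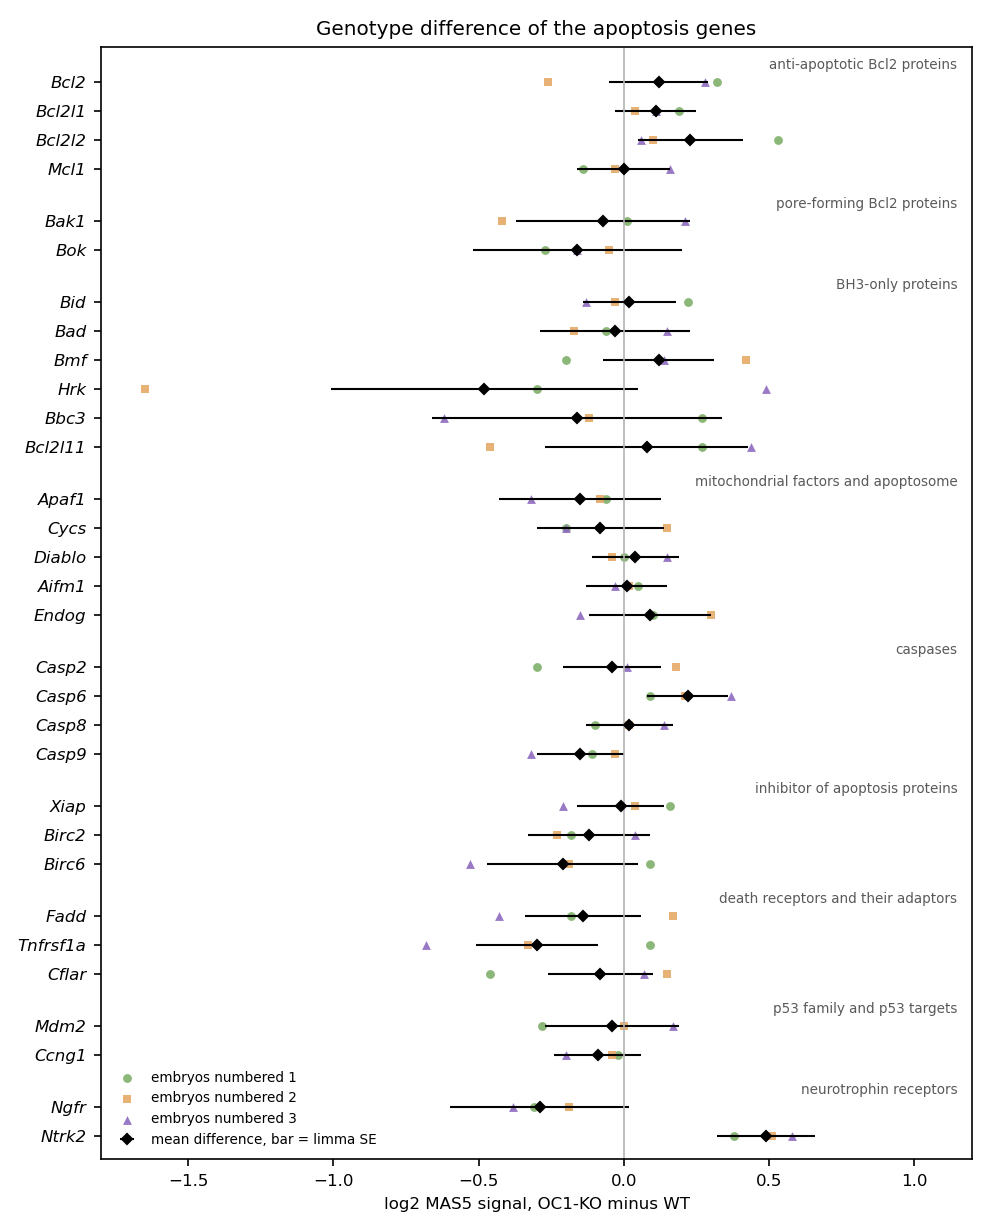
Difference in log2 MAS5 signal, OC1-KO minus WT, for the 31 apoptosis genes above the signal filter; diamonds are mean differences with limma's SE (n = 3 per genotype) and coloured markers the differences of the 3 same-numbered pairs of embryos. Only for Bcl2l1, Bcl2l2, Casp6 and Ntrk2 do all 3 pairs lie to the right of 0, and only for Bok, Apaf1, Casp9, Ccng1 and Ngfr all to the left.

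Sequences upstream of Ntrk2 and Casp6 are shown because these were the 2 genes with separate groups and the genotype removes a DNA-binding factor. In RefSeq promoter windows (assembly GRCm38.p6), the 250 bases before each start were searched on both strands for ATTGAT and for ATCGAT, core sequences that Onecut proteins are known to bind. Of the 41 genes, 38 have 50 such windows. ATTGAT was found in 1 of the 50, that of Endog, and in 6.72% of all 32851 windows. ATCGAT was found in 1 of the 50, that of Casp2, and in 0.728% of all windows. Neither was found for Ntrk2 or Casp6, which says only that these letters are not in those windows. The last 120 bases before the annotated gene start are printed for Ntrk2 (chr13:58806352-58806471, plus strand) and Casp6 (chr3:129901295-129901414, plus strand). For Endog (chr2:30171274-30171342, plus strand) and Casp2 (chr6:42264805-42264890, plus strand), the stretch around the match is given, with the match in capitals and on its reverse strand in Endog.
Ntrk2: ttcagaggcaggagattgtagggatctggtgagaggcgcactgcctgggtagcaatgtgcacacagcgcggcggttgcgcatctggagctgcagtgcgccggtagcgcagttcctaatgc
Casp6: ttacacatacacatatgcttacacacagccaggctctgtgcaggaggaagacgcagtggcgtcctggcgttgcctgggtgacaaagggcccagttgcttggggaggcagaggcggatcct
Endog: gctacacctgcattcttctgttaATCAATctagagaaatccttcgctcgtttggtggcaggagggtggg
Casp2: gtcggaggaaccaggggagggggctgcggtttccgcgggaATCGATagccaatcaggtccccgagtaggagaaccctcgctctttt

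The 4 anti-apoptotic Bcl2 genes differed by 0.00 to 0.23, with a median of 0.11, and 0 of the 4 had an unadjusted p under 0.05 by limma, by limma with the block or by the methods' t-test. Bcl2l2, which encodes Bcl-w, gave 9.59, 9.75 and 9.53 in WT and 10.12, 9.84 and 9.59 in OC1-KO. OC1-KO was higher in 3 of 3 pairs, with a difference of 0.23 (SE 0.18), but OC1-KO 3 lay within the WT range. Bcl2l1, the gene of Bcl-xL, was likewise higher in 3 of 3 pairs, with 9.81, 9.73 and 9.80 in WT and 9.99, 9.77 and 9.91 in OC1-KO. The ranges overlapped, and the difference was 0.11 (SE 0.14). Mcl1, which the cell turns over rapidly, gave 11.80, 11.97 and 11.68 in WT and 11.66, 11.95 and 11.84 in OC1-KO, a difference of 0.00 (SE 0.16).

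Bcl2 itself gave 10.19, 10.56 and 10.10 in WT and 10.52, 10.30 and 10.38 in OC1-KO. These ranges overlapped, with a difference of 0.12 (SE 0.17). Its other 4 probe sets above the filter differed by -0.37, 0.06, -0.62 and -0.08, so the direction for Bcl2 depended on the probe set read. The set at -0.62 had a block p of 0.0036, and that at -0.37 a block p of 0.0251, both unadjusted. The set at -0.62 belongs to the class that Affymetrix marks as holding probes that may also match other transcripts.

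Of the pore-forming Bcl2 genes, Bak1 and Bok could be read. Bak1 gave 6.56, 7.29 and 7.28 in WT and 6.57, 6.88 and 7.49 in OC1-KO, overlapping values around the filter with a difference of -0.07 (SE 0.30). It passed the filter through its WT mean alone, 7.04 against 6.98 in OC1-KO, so its direction carries no weight. Bok, a pore-forming relative of Bak1, gave 8.41, 8.71 and 9.43 in WT and 8.14, 8.66 and 9.26 in OC1-KO. Each OC1-KO embryo was lower than its same-numbered WT embryo, but the difference of -0.16 (SE 0.36) was smaller than the distance between embryos of 1 genotype.

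Several BH3-only genes varied widely between embryos of 1 genotype. Hrk, a BH3-only gene of neurons, had the lowest of the 31 differences, -0.48 (SE 0.53). It gave 7.06, 7.12 and 7.30 in WT and 6.76, 5.48 and 7.80 in OC1-KO. The difference rested on OC1-KO 2, the lowest of the 6, and was 0.12 without it. Without OC1-KO 3, the highest of the 6, it was -1.04. Hrk passed the filter through its WT mean alone, 7.16 against 6.68 in OC1-KO, so its lower OC1-KO level carries no weight as a test. Bbc3, which encodes the p53 target Puma, differed by -0.16 (SE 0.50) and Bcl2l11, the gene of Bim, by 0.08 (SE 0.35). Bmf, Bid and Bad differed by 0.12, 0.02 and -0.03. Bik and Pmaip1 lay below the filter, Pmaip1 between 0.34 and 4.08 on all arrays.

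The 5 mitochondrial and apoptosome genes differed by -0.15 to 0.09, and 0 of them had an unadjusted p under 0.05 by limma, by limma with the block or by the methods' t-test. Apaf1, the scaffold of the apoptosome, gave 9.93, 9.92 and 9.37 in WT and 9.87, 9.84 and 9.05 in OC1-KO. OC1-KO was lower in 3 of 3 pairs, by -0.06, -0.08 and -0.32, and the ranges overlapped. The difference was -0.15 (SE 0.28). The other Apaf1 probe set above the filter differed the other way, by 0.24 (SE 0.34), so the direction depended on the probe set read. Cycs, the gene of cytochrome c, Diablo, whose product relieves caspase inhibition, and the nuclease gene Endog differed by -0.08, 0.04 and 0.09. Aifm1, the apoptosis-inducing factor, differed by 0.01 (SE 0.14), and its 6 values lay between 10.14 and 10.28.

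The 3 inhibitor of apoptosis genes above the filter, and the 3 death receptor genes above it, had differences of -0.30 to -0.01 on their brightest probe sets, none past an unadjusted p of 0.05 by limma, by limma with the block or by the methods' t-test. These directions were not firm: Xiap turned to 0.02 with each array centred on its median, and Xiap, Birc2, Fadd and Cflar each turned to between 0.01 and 0.06 at the highest when 1 array was left out. Birc6, a very large ubiquitin-conjugating member of the inhibitor family, gave 10.32, 11.03 and 11.21 in WT and 10.42, 10.84 and 10.67 in OC1-KO. The OC1-KO values lay within the WT range, with a difference of -0.21 (SE 0.26). Its other probe sets above the filter differed by 0.31 (SE 0.43) and -0.45 (SE 0.35), the latter with an unadjusted block p of 0.0154. That set passed the filter through its WT mean alone, 7.40 against 6.95 in OC1-KO, so its lower OC1-KO level carries no weight as a test. Birc2, a ubiquitin ligase of TNF signalling, and Xiap, a direct caspase inhibitor, differed by -0.12 (SE 0.21) and -0.01 (SE 0.15). The related Birc3 was below the filter.

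Tnfrsf1a, the type 1 TNF receptor, gave 8.19, 8.67 and 8.95 in WT and 8.28, 8.34 and 8.28 in OC1-KO. The OC1-KO values were close together near the low end of the WT range, and the difference was -0.30 (SE 0.21), with an unadjusted limma p of 0.198 that was 0.0256 without WT 1. Fadd, the adaptor that links Fas to caspase 8, and Cflar, which competes with caspase 8 at that adaptor, differed by -0.14 (SE 0.20) and -0.08 (SE 0.18). Fas was below the filter at 3.67 to 4.44.

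For the p53 family and its targets, Mdm2 and Ccng1 were above the filter. Ccng1, a p53 target that encodes cyclin G1, gave 10.51, 10.76 and 10.65 in WT and 10.49, 10.71 and 10.45 in OC1-KO. The ranges overlapped, with a difference of -0.09 (SE 0.15). Mdm2, the ligase that p53 induces and that degrades p53, differed by -0.04 (SE 0.23). The p53 relative Trp73 lay below the filter, with 5.39, 3.04 and 5.21 in WT and 5.86, 5.53 and 5.90 in OC1-KO. These groups did not overlap, and the fit on all probe sets gave an unadjusted limma p of 0.119. With no filter, the groups were separate in 3 of 39 genes, Trp73 among them, against 5.49% of all probe sets. The other Trp73 probe set overlapped between the genotypes.

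A wider list held 75 other genes of these pathways. Of 66 with a probe set of their own, 48 were above the filter, 27 higher and 21 lower in OC1-KO, with a median difference of 0.01 and a range of -0.25 to 0.28. At an unadjusted p under 0.05, 0 of the 48 were called by limma, by limma with the block or by the methods' t-test. With no filter, limma called 2 of the 66, Casp4 and Ripk3, both lower, against 2.9% of all probe sets. Their unadjusted limma p was 0.0113 and 0.0143, at log2 signals of 0.27 to 1.58 and 1.71 to 3.65, far under the filter. Of the p53 pathway, 22 genes were read, 14 higher and 8 lower, with a median of 0.01. The cell cycle inhibitor Cdkn1a, a classical p53 target, differed by 0.01 (SE 0.20), and Bdnf, the ligand of TrkB, by 0.11 (SE 0.19). In 2 of the 48 the groups did not overlap, 1 in each direction, where 1.7% of all probe sets were apart higher and 1.86% lower. They are named after their values were seen: Traf2, an adaptor of TNF receptors, was higher by 0.28 (SE 0.18), and the death receptor Tnfrsf21 was lower, at -0.16 (SE 0.14).

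Arrays with the same embryo number departed from their genotype's mean together over the 31 genes, with correlations of 0.68, 0.36 and 0.64 for numbers 1 to 3 and of -0.64 to 0.14 for unlike numbers. These are descriptions across genes that share each array. The embryos numbered 3 were therefore compared with those numbered 1 and 2, with genotype as a term. The median size of that difference was 0.24 over the 31 genes and 0.24 over all probe sets, where the genotype differences had a median size of 0.11 and 0.10.

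In this comparison 2 of the 31 genes passed an adjusted limma p of 0.05, 1 higher and 1 lower in the embryos numbered 3, against 1.06% of all probe sets higher and 3.78% lower. Apaf1 was lower, at 9.37 in WT 3 and 9.05 in OC1-KO 3 against 9.84 to 9.93 in the other 4 embryos. The difference was -0.68 (SE 0.13, adjusted limma p 0.0459). Ngfr was higher, at 10.08 and 9.70 against 8.87 to 9.34, a difference of 0.75 (SE 0.15, adjusted limma p 0.0483). With any 1 array left out, 0 of the 31 genes passed that threshold, and the share over all probe sets was 0% to 3.68%. Each array centred on its median gave 3 genes, all higher, in place of 1 higher and 1 lower. The share over all probe sets at that setting is not given here, so this count does not set the apoptosis genes apart.

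The next genes in order of p were 3 death-promoting Bcl2 relatives, each higher in both embryos numbered 3 than in the other 4, and Birc2. Bad, a BH3-only gene inactivated by survival kinases, was at 9.91 in WT 3 and 10.05 in OC1-KO 3 against 9.28 to 9.45, a difference of 0.62 (SE 0.13, adjusted limma p 0.0586). Bbc3 was at 9.35 and 8.72 against 7.44 to 8.13, a difference of 1.21 (SE 0.27, adjusted limma p 0.0617). Bok was at 9.43 and 9.26 against 8.14 to 8.71, a difference of 0.86 (SE 0.19, adjusted limma p 0.0645). None of these passed the threshold after adjustment. Birc2 was at 10.31 and 10.35 against 10.60 to 10.94, a difference of -0.43 (SE 0.14, adjusted limma p 0.14). Of the 31 genes, 7 had an unadjusted p under 0.05, where 23.6% of all probe sets did. Among their further probe sets above the filter, that of Apaf1 was also lower, at -0.57 (SE 0.30), while that of Bad differed the other way, by -0.38 (SE 0.37). Mdm2, the seventh gene, was lower by -0.45 (SE 0.16) on its brightest probe set and differed by 0.13 (SE 0.24) on its other one. In 6 genes both embryos numbered 3 lay above the other 4 and in 6 below, and the shares over all probe sets were 14.9% and 23.5%.

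Within each genotype, embryo 3 departed from embryos 1 and 2 in the same direction in 24 of the 31 genes (77.4%), and in 73% of all probe sets. Pearson's r between the genotypes was 0.64 over the 31 genes and 0.67 over all probe sets, again a description across genes of the same arrays. Hrk departed by 0.21 in WT and by 1.68 in OC1-KO, Bbc3 by 1.56 and 0.87. The lens, red blood cell and periocular mesenchyme genes given above moved with the same embryo number, and their part in these differences was not tested.

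**Figure D4:**
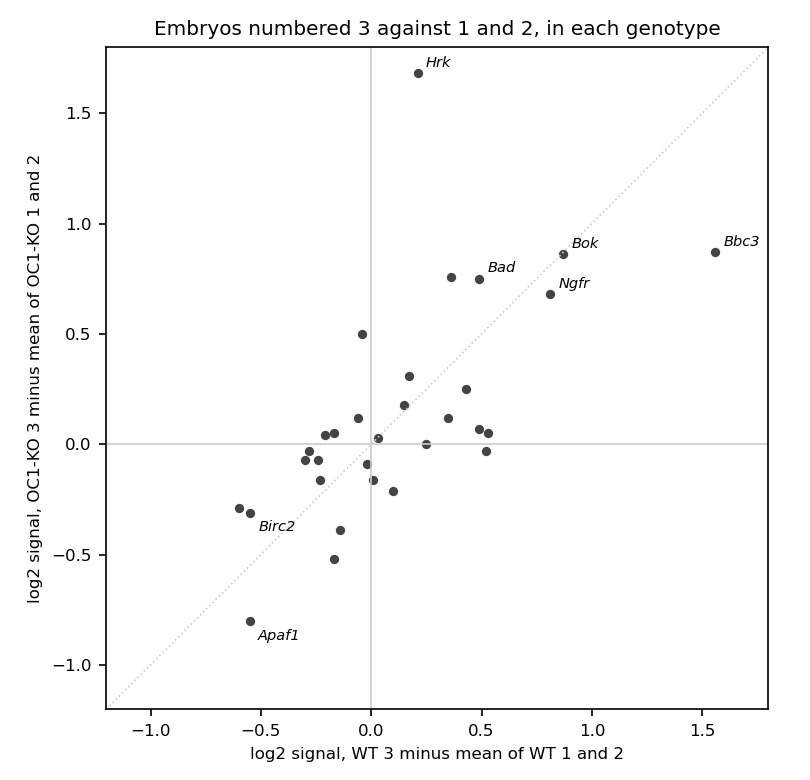
Departure of embryo 3 from the mean of embryos 1 and 2 in log2 MAS5 signal, in WT (horizontal axis) and in OC1-KO (vertical axis), 1 point for each of the 31 apoptosis genes; the dotted line marks equal departures. Bbc3, Bok, Bad and Ngfr lie at the upper right and Apaf1 and Birc2 at the lower left, each with the same sign in both genotypes, and Hrk departs by 1.68 in OC1-KO against 0.21 in WT.

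For Bcl2, as for Ntrk2, the embryo comparison also depended on the probe set. The brightest Bcl2 probe set differed by -0.15 (SE 0.17) between embryos numbered 3 and the others. The set that may match other transcripts was at 6.47 in WT 3 and 5.64 in OC1-KO 3 against 7.88 to 8.45, a difference of -2.13 (SE 0.14, adjusted limma p 0.0166), while a further set differed by 0.84 (SE 0.26). For Ntrk2, the brightest set differed by 0.24 (SE 0.14) and the fifth by 0.88 (SE 0.14, adjusted limma p 0.0319). Of the 14 apoptosis genes with more than 1 probe set above the filter, 6 had all of them on the same side of 0 between the genotypes.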

How the data were processed

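The authors deposited MAS5 signal intensity on a linear scale, 1 value per probe set and array, with background correction and probe set summary by MAS5 (version not given in the sources used here); each array has a 2% trimmed mean of 500. Here log2 was taken with no pseudocount and no further scaling. The table holds 45101 probe sets; 64 controls were dropped, and the 20888 with a mean log2 signal over 7 in either genotype were kept. Gene symbols come from a 2016 platform annotation, in which 34945 probe sets have 1 symbol, 932 several and 9160 none.

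Genotypes were compared with limma 3.58.1 (lmFit, eBayes; R 4.3.3) on all probe sets kept, two-sided, with Benjamini-Hochberg adjustment over all of them; genes below the filter were fitted with all probe sets. The methods' two-tailed t-test, limma with the embryo number as a block and exact permutation tests of single genes used the same values. Scripts were checked on simulated data. The genes, lists and tests were chosen with earlier results of these data known. All 41 genes are accounted for by role; every array's value is given for genes with separate groups, with an unadjusted p under 0.05 by any of the 3 fits, with the largest difference in each role, and for Bcl2, Bcl2l1, Mcl1, Bak1, Apaf1, Casp9 and Ngfr; for the embryo comparison, the 6 genes of smallest p are given.

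Arrays pair by embryo number: over all probe sets kept, departures from the genotype mean correlated at 0.509 to 0.671 for like numbers and at -0.438 to -0.037 for unlike ones. The pairing is read from the values, since the labels state none. The number of arrays limits the precision.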

Additional observations from a re-analysis of the deposited data

How the results depend on the processing

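At an unadjusted p under 0.05, the count of apoptosis genes (1 of 31) was 2 by the methods' t-test, 2 in the fit with the replicate block, and 0 with no signal filter, with the mean of all probe sets of a gene, or in embryos numbered 1 and 2 alone; with 1 array left out it ranged from 0 to 1. That of the other pathway genes (0 of 48) was 2 of 66 with no signal filter, against 2.9% of all probe sets. These were Casp4 and Ripk3, both lower and both below the filter. Genes with separate groups (2) numbered 0 with the mean of all probe sets, 8 in embryos numbered 1 and 2 alone (23.2% of all probe sets), and 3 to 6 with 1 array left out (8.31% to 14.2%). Genes that differ by embryo number (2) numbered 4 with an intensity trend, 5 with no genotype term, 0 with no signal filter or with the mean of all probe sets, and 0 with any 1 array left out. For the counts of 4 and 5 the share over all probe sets is not given here, so they do not set the apoptosis genes apart. The cause of these moves was not tested. With fewer arrays, separate groups were also more frequent over all probe sets, where the share was 3.56% with all 6 arrays. The count at an adjusted p under 0.05 was 0 under every alternative, the paired fit included, and the median difference stayed between -0.06 and 0.01. On the brightest probe set of each gene, the block changed the call of Ngfr alone. Among further probe sets it brought 2 of Bcl2, 1 of Birc6 and 1 of Ntrk2 under 0.05, all lower, with 0 probe sets under an adjusted p of 0.05. That of Birc6 had passed the filter through its WT mean alone. The apoptosis genes have 60 probe sets above the filter, the brightest included, and the block called 4.37% of all probe sets kept. Signs of the genotype difference were compared after rounding to 3 decimals, with a difference of 0 counted as a sign of its own. Counted so, the sign changed for 1 of 31 genes with quantile normalization and for 3 with median centring. Of these 3, only Xiap crossed 0, from -0.006 to 0.023, while Mcl1 moved from 0 to 0.029 and Bad from -0.029 to 0. The sign changed for 6 of 20 genes with the mean of all probe sets and for 5 to 10 with a given array left out. Of the 31 genes, 20 changed sign with at least 1 of the 6 arrays left out. Signals under the filter are close to background, and their log2 differences are large for small changes in signal.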
